A study of Mus musculus with 7 samples.

Results

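Induced pluripotent stem cell (iPSC) lines derived from lineage-negative bone marrow were set against iPSCs derived from mouse embryonic fibroblasts (MEFs). The comparison used 4 of the 7 bead arrays of the study: 3 arrays of the LinNeg_iPSC lines 1.1.2, 7 and 9, and 1 array of MEF_iPSC. A probe entered the comparison when its detection p-value, the array software's measure of signal over negative controls, was under 0.01 on at least 1 of these 4 arrays. That rule kept 11908 of 25697 probes, of which 11232 carried a gene symbol, for 8254 genes. At its edge, the last probes kept had a detection p of 0.00877 and a median log2 level of 5.57 on their brightest array, and the first left out had 0.01 and 5.54.

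All 7 samples came from the OG2 strain, whose cells carry a green fluorescent reporter under Pou5f1 regulatory sequence. No treatment, reprogramming vector, passage number, age or sex was given in the labels. The other 3 arrays held the lineage-negative marrow cells themselves (LinNeg_BM), OG2 embryonic stem cells (ESC) and 1 iPSC line from lineage-positive marrow (LinPos_iPSC). Each line was counted as 1 biological replicate, and the tissue entry read bone marrow for every sample, MEF_iPSC and ESC included. Separate donor animals were not stated, so the spread between the lines may be partly technical and may leave out variation between animals.

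Reprogramming returns a body cell to a state in which transcription factors such as Pou5f1, Sox2 and Nanog maintain the ability to form all lineages. The p53 pathway, which stops the cell cycle or triggers cell death after damage, is known to limit that process, and its targets also mark how pluripotent cells respond to stress. Atf4 is the transcription factor through which cells answer amino acid shortage and protein folding stress. Extraembryonic endoderm genes mark cells that leave pluripotency along the yolk sac route.

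Both kinds of iPSC carried the markers of pluripotent cells. Of the 27 naive pluripotency genes measured (31 were listed), 26 were above background on MEF_iPSC and 26, 27 and 26 on lines 1.1.2, 7 and 9. Pou5f1 stood at 12.95, 12.87 and 12.83 in the lines and 12.56 in MEF_iPSC, and Nanog at 12.66, 12.42 and 12.57 against 12.07. Ptprc and Spi1, genes of white blood cells, were not above background on any of the 4 arrays. Of 22 pan-leukocyte genes listed, 6 were measured and 5 were above background on all 4 arrays. The brightest, Laptm5, read 12.77, 12.12 and 11.92 in the lines, 11.53 in MEF_iPSC and 12.26 in ESC. Col1a1, a fibroblast collagen, was at 6.41, 7.16 and 6.14 in the lines and 6.57 in MEF_iPSC. Between 40.6% and 42.4% of probes were above background on each of the 7 arrays, and the number of arrays limits the precision.

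The fibroblast-derived array stood further from the marrow-derived lines than the lines stood from one another. Any pair of lines differed by at least 2-fold at 137 to 218 of the 11908 probes, and MEF_iPSC differed from a line by that much at 457 to 562. LinPos_iPSC stood further from the lines than MEF_iPSC did, at 587, 667 and 625 probes for lines 1.1.2, 7 and 9. ESC differed from line 1.1.2 at 236 probes and from lines 7 and 9 at 450 and 474, so line 1.1.2 was about as near to ESC as to the other lines.

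In limma, 10 of 11908 probes passed an adjusted p of 0.05, which is 0.084% of those tested. Of these, 8 were higher in the lines (0.0672%) and 2 lower (0.0168%), for 9 genes in all. Only the 3 lines gave a spread, and the single MEF_iPSC array was assumed to vary like them. Without line 1.1.2, 7 or 9 the count was 1, 2 or 3 probes, with Thumpd1 called each time. An unadjusted p under 0.05 was reached by 1620 probes (13.6%), 836 higher and 784 lower. A fit that lets the spread follow intensity called 242 probes (2.03%), 167 higher and 75 lower, with all 10 probes among them.

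Among the probes past the test the largest difference was in Thumpd1, a tRNA-binding partner of RNA acetylation known from human cells. Its single probe was below background in lines 1.1.2, 7 and 9 at 4.59, 4.41 and 4.47 on the log2 scale and stood at 9.98 in MEF_iPSC. ESC (4.45), LinPos_iPSC (4.46) and LinNeg_BM (4.37) were as dim as the lines, so MEF_iPSC was the array apart. Thumpd1 was at least 21.6-fold lower in the lines (limma, adjusted p = 0.00339).

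Eif2s3y, the Y-linked copy of a translation initiation subunit, was likewise below background in the lines, at 4.55, 4.56 and 4.54, and at 7.73 in MEF_iPSC. LinPos_iPSC held it at 5.72, ESC at 4.43 and the source marrow LinNeg_BM at 4.38. It was at least 4.57-fold lower in the lines (limma, adjusted p = 0.0147). Its X-linked partner Eif2s3x stood at 11.12, 10.98 and 11.01 in the lines and 11.15 in MEF_iPSC, a difference of -0.11 that did not pass (limma, adjusted p = 0.822). The probe of Kdm5d, also on the Y chromosome, was not above background on any array, and Uty was so on 1 of the 3 lines and not in MEF_iPSC. The X-linked Xist read 11.89 in LinNeg_BM, 5.02, 5.72 and 5.25 in the lines and 5.10 in MEF_iPSC. The sex of the source animals was not given, and its part in these values was not tested.

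Among the same probes the largest gain was in Ctsc, which encodes cathepsin C, a lysosomal protease that trims and activates the granule enzymes of immune cells. Its brightest probe read 8.82, 8.61 and 8.88 in the lines and was below background in MEF_iPSC at 4.48. By this probe the lines exceeded MEF_iPSC at least 9.15-fold (limma, adjusted p = 0.0101) and at least 3.67-fold by another (adjusted p = 0.0292). The third probe stood at least 3.13-fold higher and just missed the threshold (adjusted p = 0.0535). ESC read 8.93 and LinPos_iPSC 8.24 at the brightest probe, on the side of the lines.

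Atf4 read 10.27, 10.43 and 10.13 in the lines and 7.03 in MEF_iPSC at its single probe, 9.48-fold higher in the lines (difference 3.25 ± 0.20 SE; limma, adjusted p = 0.0192). ESC stood at 10.56, and LinPos_iPSC lay between at 8.46. Tomm22, a receptor of the mitochondrial import pore, read 9.95, 9.87 and 9.86 in the lines and 7.59 in MEF_iPSC, 4.92-fold higher in the lines (limma, adjusted p = 0.0348). LinPos_iPSC was as low as MEF_iPSC at Tomm22 (7.71) and ESC as high as the lines (9.89). Both genes lie on chromosome 15.

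Apoa2, an apolipoprotein of yolk sac endoderm and liver, read 8.22, 8.23 and 8.32 in the lines and was below background in MEF_iPSC at 5.44, at least 6.42-fold higher in the lines (limma, adjusted p = 0.0192). LinPos_iPSC was also dim (4.71). Trp53inp1, a nuclear protein that p53 induces, read 9.89, 9.85 and 9.91 in the lines and 7.61 in MEF_iPSC at the probe that passed, 4.83-fold higher (limma, adjusted p = 0.0348). Its brighter probe stood 3.50-fold higher (adjusted p = 0.0715).

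The zinc finger gene Zfp365 read 8.86, 8.60 and 8.75 in the lines against 6.26, 5.57-fold higher (limma, adjusted p = 0.0369). The uncharacterised 1700123O20Rik was below background in MEF_iPSC at 4.63 and read 6.78, 6.83 and 7.00 in the lines, at least 2.46-fold higher (adjusted p = 0.0483), but a second, brighter probe of it differed by 0.12. For all 10 probes the 3 lines lay close together and MEF_iPSC lay outside them, a pattern that the test itself selects.

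**Figure D1:**
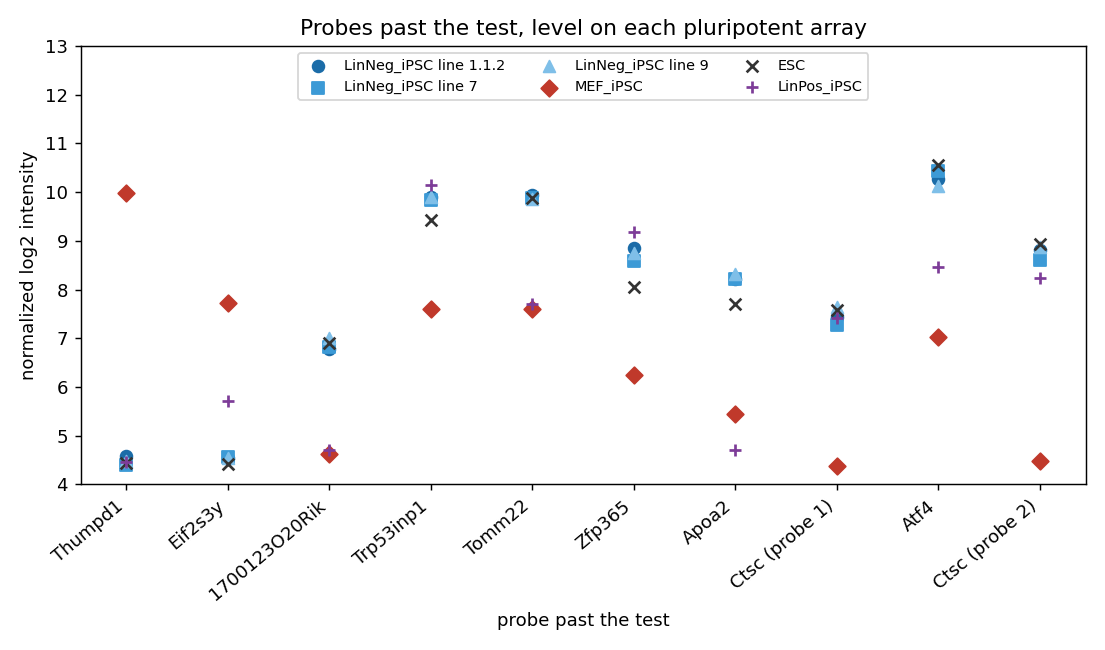
Normalized log2 intensity (y axis) of the 10 probes past the test (x axis), one symbol per array. The 3 LinNeg_iPSC lines overlap at each probe, MEF_iPSC stands apart, and ESC lies with the lines, while LinPos_iPSC lies with MEF_iPSC at Tomm22, 1700123O20Rik and Apoa2.

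Beyond the test, 177 probes (1.49%, 141 genes) stood at least 2-fold higher in the lines with no overlap and 146 (1.23%, 127 genes) at least 2-fold lower. These counts carry no p-value, since an exact permutation test of 3 arrays against 1 cannot go below p = 0.25. In MEF_iPSC 53 of the 177 were below background, and in all 3 lines 33 of the 146 were. ESC lay nearer the lines than MEF_iPSC at 119 of the 177 and at 120 of the 146, and LinPos_iPSC at 110 and 122. That split describes these probes only, because MEF_iPSC entered their choice.

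Among genes with the widest gaps on the higher side, none past the test, was Mcam, a cell adhesion molecule. It read 9.77, 10.09 and 9.89 in the lines against 7.61, a 4.96-fold difference (limma, adjusted p = 0.0535), and its other probes stood higher by 2.11 and 1.83 on the log2 scale. The uncharacterised 2210409E12Rik stood 7.78-fold higher, Cox6b2, a testis form of a cytochrome oxidase subunit, 3.60-fold, and Dcxr, a sugar reductase, 3.67-fold. Lrp6, a Wnt co-receptor below background in MEF_iPSC, stood at least 2.04-fold higher, and Uap1, an enzyme of UDP-N-acetylglucosamine synthesis, 3.41-fold. Ddit4l, Svop and Adam23 stood 3.85-fold, 3.83-fold and 3.36-fold higher. Tex13b varied most among the lines of these genes, at 9.59, 6.77 and 6.92 against a dim 4.59 in MEF_iPSC. ESC lay nearer MEF_iPSC than the lines at Svop (6.64 against 6.30 in MEF_iPSC) and Dcxr (8.24 against 7.46). At the other genes of this paragraph ESC lay nearer the lines. LinPos_iPSC was as low as MEF_iPSC at 2210409E12Rik (6.30 against 6.54 in MEF_iPSC) and Uap1 (6.51 against 7.03). It lay nearer the lines at the rest.

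On the lower side, the membrane glycoprotein gene Emb (embigin) read 7.79, 6.68 and 8.96 in the lines and 11.78 in MEF_iPSC, 15.7-fold apart (limma, adjusted p = 0.181). LinPos_iPSC was high as well (11.09) and ESC low (5.74). The cytokine gene Osm, above background in 2 of 3 lines, stood at least 4.13-fold lower. The homeobox genes Crxos and Obox6, known from germ cells and the early embryo, stood lower by 4.05-fold and by at least 2.27-fold, and a second Crxos probe, dim in all 3 lines, stood at least 2.23-fold lower. Rragd, a small GTPase of nutrient signalling to mTORC1, stood 2.95-fold lower and Fam25c 4.28-fold, while Cd6 and Cldn10, dim in the lines, stood lower by at least 2.37-fold and at least 1.77-fold. Zfp330 showed how far probes can part: one, above background in 1 of the 3 lines, stood at least 42.4-fold lower, and the other, above background on all 4 arrays, 1.56-fold lower.

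Targets of p53 and cell-cycle inhibitors, taken as a list, mostly stood higher in the lines. Of 30 listed genes 24 were measured and 21 were above background on all 4 arrays. Of those 21, 15 stood higher in the lines with no overlap and 3 lower, beside 30.5% and 32.9% of the 6876 genes on all 4 arrays. Their median difference was 0.81, beside -0.01 over those genes, and it was 0.51 over the 24 measured. By line it was 0.81, 0.72 and 0.57 for lines 1.1.2, 7 and 9, and ESC and LinPos_iPSC stood above MEF_iPSC by 0.44 and 0.47. At the brightest probe of each gene none passed limma over all probes. With the intensity trend 8 passed, all higher.

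The 8 genes cover arrest, death, repair and feedback. Plk2, a stress-induced kinase, read 8.66, 8.34 and 8.47 in the lines and 6.60 in MEF_iPSC (3.70-fold; limma, adjusted p = 0.0715). Phlda3, which restrains Akt signalling, read 11.26, 11.22 and 11.13 against 9.63 (2.97-fold; adjusted p = 0.0751). All 3 lines lay above MEF_iPSC by well over their own range at both genes.

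Ccng1, cyclin G1, read 12.17, 12.36 and 12.36 in the lines and 10.78 in MEF_iPSC (2.86-fold; limma, adjusted p = 0.099), and its 3 probes gave differences of 1.30, 1.54 and 1.52. Cdkn1a, the p21 inhibitor of cell-cycle kinases, read 11.72, 11.42 and 11.47 against 10.73 (1.75-fold; adjusted p = 0.229), with 0.81, 0.94 and 0.93 at its 3 probes. The probes of each gene thus gave like differences. Mdm2, the ubiquitin ligase that degrades p53, differed by 0.85 and 1.01 at its bright probes, and its remaining probe was dim in MEF_iPSC and in all but 1 of the lines. Bbc3 (Puma, which promotes cell death) stood 2.09-fold higher and Ercc5, a DNA repair nuclease, 2.18-fold higher.

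The members lower in the lines were Tnfrsf10b (-0.44), Sesn1 (-0.42) and Cdkn2a (-0.31), the locus of the Ink4a and Arf inhibitors. Trp53 itself had no annotated probe. Cell-cycle genes as a list differed by a median of 0.09 over 16 genes, with 8 higher and 4 lower, beside 30.5% and 32.9% of all genes on the 4 arrays.

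**Figure D2:**
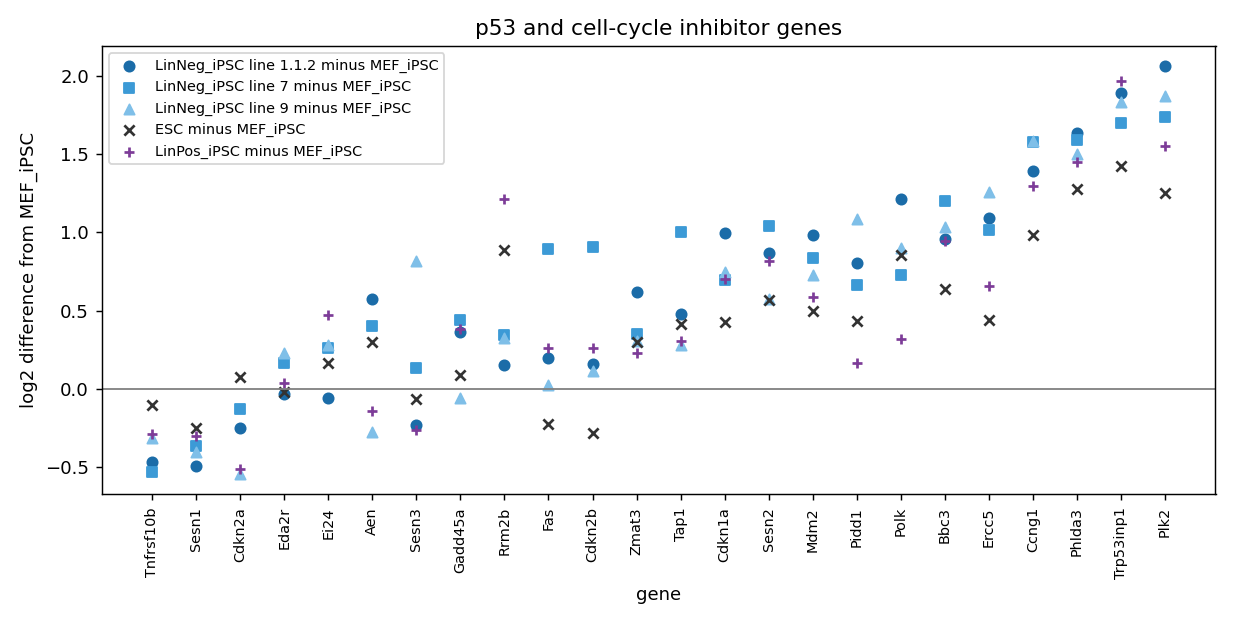
Log2 difference from MEF_iPSC (y axis) of each of the 24 measured p53 and cell-cycle inhibitor genes (x axis), for the 3 lines, ESC and LinPos_iPSC. From Sesn2 to the right, ending at Plk2, all 5 arrays lie above 0, and Tnfrsf10b, Sesn1 and Cdkn2a lie below it for the 3 lines.

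The promoters of Ccng1 and Cdkn1a are shown because both genes stood higher at 3 probes and both windows hold the p53 half-site, a 10-base palindromic consensus read on both strands. The sequences are RefSeq's for GRCm38.p6, from 250 bases before to 50 after the gene's start, with the half-site in capitals. Ccng1 lies on the minus strand at chr11:40755237-40755536, and the Cdkn1a window, 1 of 2 for this gene, on the plus strand at chr17:29090729-29091028.
Ccng1: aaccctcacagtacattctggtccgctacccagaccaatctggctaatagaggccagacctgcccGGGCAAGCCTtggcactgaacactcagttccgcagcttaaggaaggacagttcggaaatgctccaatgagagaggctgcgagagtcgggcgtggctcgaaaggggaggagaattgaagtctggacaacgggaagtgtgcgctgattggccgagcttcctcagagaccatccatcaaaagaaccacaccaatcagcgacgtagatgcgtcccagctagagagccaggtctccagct
Cdkn1a: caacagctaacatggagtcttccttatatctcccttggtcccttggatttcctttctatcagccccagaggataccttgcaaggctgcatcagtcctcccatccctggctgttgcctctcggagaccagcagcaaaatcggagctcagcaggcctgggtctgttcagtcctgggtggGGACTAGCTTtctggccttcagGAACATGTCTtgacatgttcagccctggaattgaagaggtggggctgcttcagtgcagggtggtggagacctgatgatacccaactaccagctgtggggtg
The letters of the half-site are not in the other Cdkn1a window. The half-site was in 8.36% of 32851 promoter windows. Counted by gene rather than by window, it was in 8 of the 20 measured list genes with a window, so the shares differ in unit. The median difference of these 8 genes was 0.53, beside 0.51 over the 24 measured, and Sesn1 among them stood lower in the lines. A match of letters is a description of the window and not a binding site.

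Genes of the Atf4 and amino acid response mostly did not stand higher with Atf4. Of 34 measured members of that list (42 were listed), 32 were above background on all 4 arrays. Of these, 6 stood higher in the lines with no overlap and 20 lower, beside 30.5% and 32.9% of all genes on the 4 arrays. Their median difference was -0.21. Atf4 was the only member past limma over all probes. With the intensity trend, Atf4 passed higher and Nupr1 lower.

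Nupr1, a stress-induced chromatin protein, read 8.71, 8.81 and 8.49 in the lines and 9.94 in MEF_iPSC, a difference of -1.27 (limma, adjusted p = 0.135). Gpt2, an alanine aminotransferase on chromosome 8, differed by -0.82, and Chac1, a glutathione-degrading enzyme, by -0.56. Asns, the asparagine synthetase that Atf4 controls, differed by -0.11, and Trib3 and Ddit3, further stress targets, by -0.10 and 0.38. The members that stood higher were Sesn2 (0.83), also on the p53 list, Ddit4 (0.69), Atf3 (0.45), Ppp1r15a (0.44) and Ddit3. LinPos_iPSC, with an intermediate Atf4 level, had a list median of 0.12 above MEF_iPSC, and ESC one of -0.16.

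**Figure D3:**
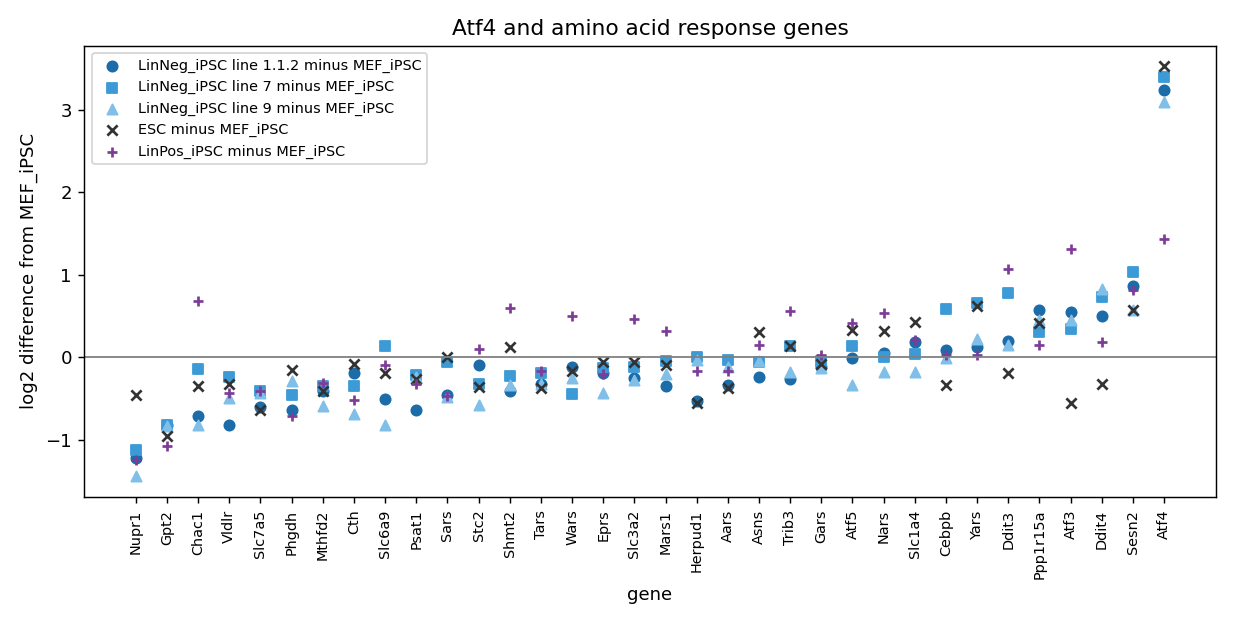
Log2 difference from MEF_iPSC (y axis) of the 34 measured Atf4 and amino acid response genes (x axis), for the 3 lines, ESC and LinPos_iPSC. Atf4 at the right end stands 3.25 higher in the lines on average, while most of the other genes lie between -0.5 and 0.5.

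Chac1 and Nupr1 are shown because their windows hold TTGCATCA, searched on both strands as one form of the composite element that Atf4 binds, and both genes stood lower in the lines while Atf4 stood higher. The motif is in capitals in the RefSeq GRCm38.p6 windows of Chac1 (plus strand, chr2:119350992-119351291) and Nupr1 (minus strand, chr7:126625421-126625720).
Chac1: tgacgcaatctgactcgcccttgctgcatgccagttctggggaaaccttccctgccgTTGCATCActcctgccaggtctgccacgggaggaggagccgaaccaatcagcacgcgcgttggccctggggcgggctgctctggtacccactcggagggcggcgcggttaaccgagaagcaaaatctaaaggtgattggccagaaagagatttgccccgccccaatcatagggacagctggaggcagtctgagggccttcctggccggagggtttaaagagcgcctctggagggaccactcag
Nupr1: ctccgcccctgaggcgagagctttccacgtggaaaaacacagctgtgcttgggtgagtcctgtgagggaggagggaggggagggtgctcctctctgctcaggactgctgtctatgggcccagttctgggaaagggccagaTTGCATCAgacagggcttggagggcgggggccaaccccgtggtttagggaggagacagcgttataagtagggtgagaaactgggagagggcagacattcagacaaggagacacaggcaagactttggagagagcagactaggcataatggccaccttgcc
The motif was in 0.895% of 32851 windows. Counted by gene rather than by window, it was in 9 of the 30 measured list genes with a window. The median difference of these 9 genes was -0.19, and Atf3 among them stood higher in the lines.

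Genes of the extraembryonic endoderm stood higher in the lines, with wide differences between lines. Of 18 measured (24 were listed), 17, 14 and 17 were above background in lines 1.1.2, 7 and 9, 12 in MEF_iPSC and 13 in ESC. The 11 on all 4 arrays had a median difference of 0.56, and over the 18 measured it was 1.05. Members dim in MEF_iPSC, such as Gata6 and Apoa2, entered the 18 only through the lines. The filter thus favours the lines in the 1.05 and in the counts above background. Of the 11, 8 stood higher and 0 lower, beside 30.5% and 32.9% of all genes on the 4 arrays. Their medians were 0.66, 0.24 and 0.64 by line, and ESC and LinPos_iPSC stood 0.03 and 0.23 above MEF_iPSC. Besides Apoa2, which passed limma, Dab2, an endocytic adaptor of yolk sac endoderm, read 10.17, 8.54 and 9.95 in the lines against 6.92 (6.22-fold; limma, adjusted p = 0.229). Gata6, the transcription factor that specifies this lineage, read 8.35, 6.22 and 7.69 against a dim 5.35. Line 7 was the lowest of the lines at both genes. At Dab2 LinPos_iPSC (7.15) lay near MEF_iPSC and ESC (8.30) near line 7, while at Gata6 both read 7.19. The basement membrane collagens Col4a1 and Col4a2 differed by 1.46 and 1.56, against the lower level of chromosome 8 on which they lie, and Rbp4, dim in all 3 lines, stood at least 1.30-fold lower.

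Few genes of the primed and early lineage list could be compared. Of 20 listed, 6 were measured and 5 were on all 4 arrays, of which 4 stood higher and 0 lower, beside 30.5% and 32.9% of all genes on the 4 arrays. Lefty1, an inhibitor of Nodal, read 12.26, 12.47 and 12.50 in the lines and 10.89 in MEF_iPSC (2.86-fold; limma, adjusted p = 0.102), and Nodal itself differed by 0.99. LinPos_iPSC was as low as MEF_iPSC at Lefty1 (10.55), and ESC (11.19) also lay nearer MEF_iPSC than the lines. At Nodal ESC (9.74) lay nearer the lines.

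Within the naive pluripotency list the median difference was 0.20 over 26 genes, with 14 higher and 6 lower, beside 30.5% and 32.9% of all genes on the 4 arrays. Klf4 and Klf5, factors that hold the naive state, differed by 0.66 and 0.78, and Fbxo15, an early Pou5f1 target, by -1.03. With the intensity trend 3 genes passed higher and 1 lower, and in limma over all probes none did. Sox2 differed by -0.20 at its brighter probe and by 0.72 at the other. Fibroblast or feeder genes stood higher in the lines at 6 of 15 genes and lower at 0, beside the same 30.5% and 32.9%. Dcn was high in line 7 only (10.33, against 6.27 and 6.98 in the other lines and 6.36 in MEF_iPSC). The summed log2 level of the 19 measured genes of this list was 152.3, 163.2 and 153.4 in the lines and 148.3 in MEF_iPSC. Col3a1, Lum and Twist2, dim in MEF_iPSC, entered only through the lines, so the filter favours the lines in this sum. The part of carried-over feeder cells in these values was not tested.

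Enzymes of cholesterol synthesis stood lower in the lines at 14 of 16 genes and higher at 1, beside 32.9% lower and 30.5% higher over all genes on the 4 arrays. Their median difference was -0.35. Lss, Idi1 and Dhcr7 differed by -0.75, -0.71 and -0.70, and Msmo1 and Mvd, both on chromosome 8, by -1.09 and -0.71. None passed limma, with or without the trend. The median was -0.44, -0.29 and -0.36 by line, and ESC stood lower still, at -0.57 from MEF_iPSC. With chromosome 8 genes left out it was -0.32.

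**Figure D4:**
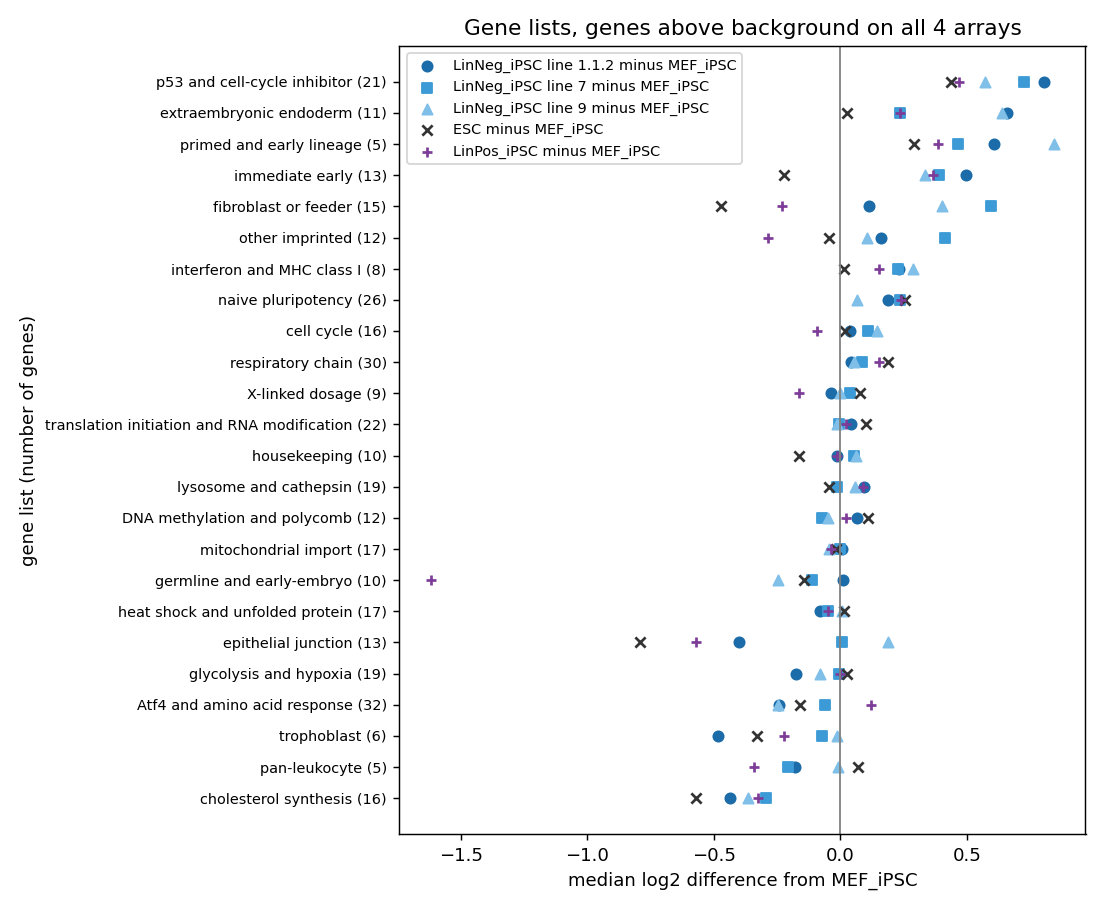
Median log2 difference from MEF_iPSC (x axis) of each gene list with at least 5 genes above background on all 4 arrays (y axis, number of genes in parentheses), for the 3 lines, ESC and LinPos_iPSC. In the lines the p53 list lies at 0.57 to 0.81 and the cholesterol list at -0.44 to -0.29.

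Chromosome 8 stood apart from the other chromosomes. Its 391 genes above background on all 4 arrays had a median difference of -0.21, and 54.0% of them stood lower in the lines with no overlap against 10.5% higher. The shift differed by line, at -0.34, -0.22 and -0.07 in lines 1.1.2, 7 and 9, and was -0.42 in ESC and -0.49 in LinPos_iPSC. For the mean of the lines, medians of the other autosomes lay between -0.08 and 0.05. In line 9 alone, chromosome 8 was hardly apart, beside -0.06 on chromosomes 5 and 19. Chromosome 14 stood at -0.14 in line 1.1.2 and -0.25 in ESC. In 5 consecutive blocks of genes along chromosome 8 the median ran from -0.28 to -0.14, with more genes lower than higher in each. The number of copies of the chromosome was not measured.

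Of the 146 probes at least 2-fold lower in the lines, 21 (14.4%, 19 genes) lie on chromosome 8, which holds 5.11% of the probes tested. Among them were Bst2, an antiviral membrane protein that stood 3.24-fold lower, Plvap, an endothelial protein (3.15-fold), Prdx2, a peroxidase (2.97-fold at its brighter probe), and Zfp869 (4.06-fold). Timm44, of the mitochondrial import motor, stood lower at 3 probes by 0.83 to 1.04 on the log2 scale. These values include the shift of the whole chromosome, and its part in each was not tested. Among the 177 higher probes 4 (2.26%) lie on chromosome 8. Such unevenness was not particular to chromosome 8. Chromosome 7, with 861 of the 11908 probes tested, held 22 of the 146 lower probes and 11 of the 177 higher. Chromosome 1, with 545 probes tested, held 27 of the 177 higher probes and 2 of the 146 lower.

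**Figure D5:**
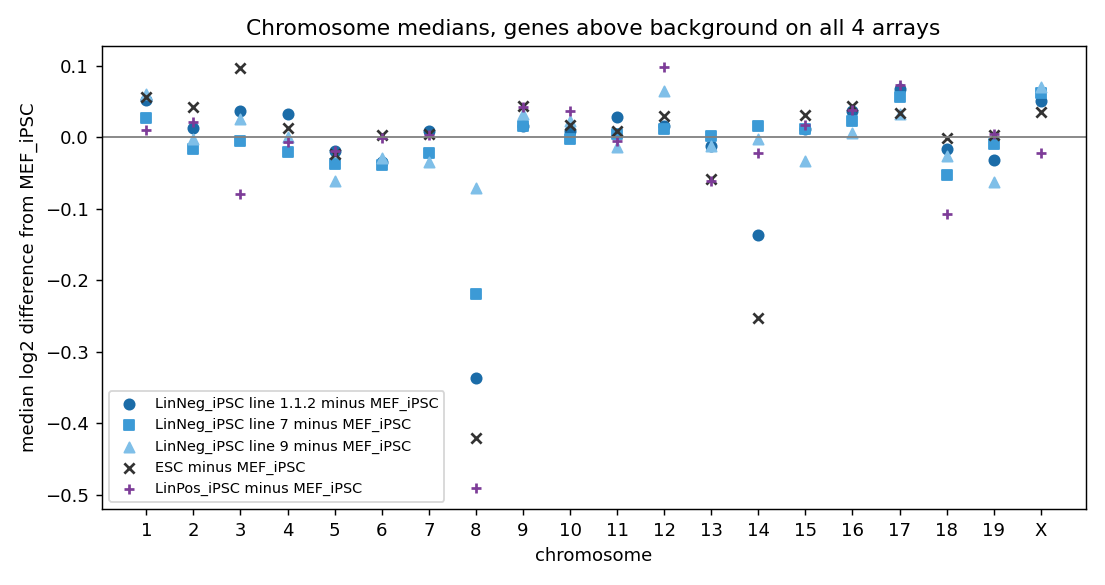
Median log2 difference from MEF_iPSC (y axis) of the genes of each chromosome (x axis), for the 3 lines, ESC and LinPos_iPSC. Chromosome 8 lies at -0.34, -0.22 and -0.07 in the lines and lower in ESC and LinPos_iPSC, while the other chromosomes lie near 0, apart from chromosome 14 in ESC at -0.25 and in line 1.1.2 at -0.14.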

How the data were processed

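Gene expression was measured on 7 bead arrays, and 4 entered the comparison. The authors deposited, per probe and array, a linear intensity, neither background-subtracted nor scaled between arrays as far as the values show, and a detection p-value. A second deposited table holds log2 values processed by the authors, whose median is 3.91 on every array, and it served only as an alternative. The submitters' processing notes name BeadStudio 3.2, RMA and lumi without role or order.

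Intensities were corrected with negative controls inferred from the detection p-values (limma 3.58.1 neqc, offset 16), quantile-normalized over 7 arrays and taken to log2. Probes were tested with lmFit and eBayes (2 residual and 3.41 prior degrees of freedom) with Benjamini-Hochberg adjustment over 11908 probes at 0.05. The script was tested on simulated data. A side below background has only a bound: the brighter mean against, per dim array, its own value or the array's lowest level above background, whichever is higher.

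Symbols came from the platform annotation (23978 probes with 1 symbol, 1719 not listed), 23962 of them matched to GRCm38.p6 by gene identifier. In lists a gene stood at its probe with the highest mean over the 4 arrays. Named were genes past the test, the 12 widest gaps in each direction, up to 3 members of each list and a fixed set, and other list members were named after their values were seen. Members and lists were chosen with earlier results of these data known. Alternatives covered scaling, background, filters, the eBayes prior, 1 test per gene, the authors' values and leaving out each line. Leaving out chromosome 8 was added after seeing the data.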

Additional observations from a re-analysis of the deposited data

How the results depend on the processing

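The count of 10 probes past the test changed most with the intensity trend and with the background correction. It was 14 with arrays normalized over 6 or 4 arrays, 13 with the looser filter, 9 with a robust prior and 7 with no filter or 1 test per gene. It was 16 with cyclic loess (14 higher, 2 lower), 23 of 9761 probes with the filter on all 4 arrays (20 higher, 3 lower) and 4 on the authors' values (2 higher, 2 lower). It was 35 with arrays scaled to a common median (22 higher, 13 lower), which moved the median of all probes to -0.11. It was 132 with normexp background (86 higher, 46 lower), 199 with no background correction (116 higher, 83 lower) and 242 with the intensity trend. Without 1 line it was between 1 and 3. All 10 stayed called under both other neqc sets, both scalings, the looser filter, normexp, no background correction and the trend. Where background was corrected without controls or not at all, the cause of the larger count was not tested. The count of 323 probes at least 2-fold apart was 877 on the authors' values (464 higher, 413 lower), 203 with the filter on all 4 arrays, 111 with normexp (80 higher, 31 lower) and 79 with no background correction (55 higher, 24 lower), and between 353 and 379 without 1 line. With chromosome 8 left out it was 298. Col1a1, level between the groups, changed sign to -0.056 with common median scaling, -0.014 on the authors' values and -0.0076 with cyclic loess, and lay between -0.29 and 0.22 without 1 line. Of 1371 gene differences rerun under alternatives, 4 changed sign, all of them at Col1a1. The chromosome 8 median stayed below 0 in every setting run, from -0.33 to -0.09. The p53 list median ran from 0.35 to 0.81 and the Atf4 list median from -0.35 to -0.16. For the p53 list, the 0.81 over genes on all 4 arrays is the top of that range, beside 0.51 over the 24 measured. Of 431 list medians under alternatives 368 moved by less than the spread between lines. No paired analysis was possible because MEF_iPSC had 1 array, and the labels give no replicate numbers shared between the groups. With 1 MEF_iPSC array, no difference here can be told apart from variation between fibroblast-derived lines or between arrays, and dim probes carry bounds only.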

Other observations

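Immediate early genes, the first transcribed after growth or stress signals, stood higher in the lines at 11 of 13 genes above background on all 4 arrays and lower at 1, beside 30.5% higher and 32.9% lower over all genes on those arrays. Their median difference was 0.41. Fos read 12.48, 12.65 and 12.47 in the lines and 11.59 in MEF_iPSC, a difference of 0.95 (limma, adjusted p = 0.175, and adjusted p = 0.00114 with the intensity trend). Zfp36 and Junb, the latter on chromosome 8, differed by 0.86 and 0.73, and Dusp4, a phosphatase gene also there, by -0.41. ESC stood 0.22 below MEF_iPSC in this list and LinPos_iPSC 0.36 above it.

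Imprinted genes outside the Dlk1 cluster, whose expression depends on the parent of origin, had a median difference of 0.30 over 12 genes. Of these 6 stood higher and 2 lower, beside the same shares. The lower ones were Phlda2 and Cdkn1c, both maternally expressed on chromosome 7, which differed by -1.66 and -0.99. Phlda2 read 9.94, 9.47 and 9.29 in the lines and 11.23 in MEF_iPSC, with ESC at 9.37. Igf2 and Dlk1, growth genes expressed from the paternal copy, were highest in line 7, at 12.72 and 10.45 beside 10.99 and 7.32 in MEF_iPSC. Mettl14, of the RNA methyltransferase complex, read 8.51, 8.42 and 8.69 in the lines and 9.88 in MEF_iPSC, with LinPos_iPSC at 9.53.

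Blood lists had few members above background: 6, 3, 5, 5 and 6 genes were measured for pan-leukocyte, granulocyte-monocyte, stem and progenitor, erythroid-megakaryocyte-mast and lymphoid genes. None passed limma, and Cd74, an antigen presentation chaperone, stood lower in the lines by 1.11 on the log2 scale at one probe and by 1.42 at the other. Interferon and MHC class I genes had a median of 0.23 over 8 genes and trophoblast genes one of -0.22 over 6. Glycolysis genes stood lower at 8 of 19 and higher at 3, beside 32.9% and 30.5% of all genes, with a median of -0.14. Respiratory chain, mitochondrial import, heat shock, lysosome, DNA methylation and housekeeping genes had medians between -0.07 and 0.07.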
